A study of Mus musculus with 8 samples.

Results

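The colony-stimulating factors and their receptors were followed in aortic tissue of mice with thoracic aortic dissection (TAD) and of control mice. The set was chosen by gene symbol and held 8 genes, namely the ligands Csf1, Csf2, Csf3 and Il34 and the receptor genes Csf1r, Csf2ra, Csf2rb and Csf3r. Of these, 7 were found among the 13839 genes of the table, and Csf2 was not analysed here. The filter on low counts kept 6 of them among 13701 tested genes, and Csf3 was left to tests of its own.

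The TAD group held 3 libraries and the control group 5. The study design gives mice that drank β-aminopropionitrile, an inhibitor of lysyl oxidase that weakens the cross-links of collagen and elastin. The dose was 1 g/kg daily, begun at 3 weeks of age and kept up for 4 weeks. At 7 weeks a minipump delivering angiotensin II, a peptide that raises blood pressure, at 1 µg/kg per minute was placed under the skin, and tissue was taken after a further 24 h. The sources used here do not give the treatment of the controls, the strain, the sex or any pooling of animals. No transgene or deletion is named in the labels of either group. The labels do not say that libraries came from separate mice, so p-values measure the spread between libraries, which may be technical.

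Colony-stimulating factors are secreted proteins that make blood precursors survive, divide and mature into myeloid cells. Csf1 (M-CSF) and Il34 both bind Csf1r, a receptor tyrosine kinase of monocytes and macrophages. Csf2 (GM-CSF) binds a receptor built from the ligand-specific chain Csf2ra and the signalling chain Csf2rb, and Csf3 (G-CSF) binds Csf3r, the receptor of the neutrophil lineage. The cytokine receptors without a kinase of their own signal through Jak2 and STAT proteins. In an artery, stromal and endothelial cells are known sources of the ligands, while the receptors sit mainly on leukocytes.

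Total counts ran from 12042971 to 15039132 per library. Levels are given as FPKM, a read count divided by gene length and library total. The tissue carried the defining markers of an artery and of the fat around it, with summed smooth muscle markers of 165.0 to 1147 FPKM in TAD and 393.1 to 2401 FPKM in control libraries, and summed adipocyte markers of 827.7 to 1388 FPKM in TAD and 3510 to 4006 FPKM in control libraries. Some libraries stood apart. Cardiomyocyte markers summed to 3455 FPKM in TAD 1 and 4875 FPKM in control 1, and elsewhere to 2.73 and 432.0 FPKM in TAD and 2.66 to 756.5 FPKM in control libraries. TAD 2 had the lowest sums of the TAD libraries for fibroblast markers (162.5 FPKM) and resident macrophage markers (87.6 FPKM) and the highest of any library for neuron and Schwann cell markers (375.0 FPKM). Control 5 had a neutrophil marker sum of 78.6 FPKM, against 6.36 to 12.4 FPKM in the other controls.

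The promoters of Csf1, Csf2ra and Csf3r, the called members with a sequence in the RefSeq promoter table (GRCm38.p6; 4 of 8 members matched), are shown because these genes were higher in TAD. Each runs 5′ to 3′ on the strand of its gene, with motif matches in capitals. Those of Csf1 and Csf2ra run up to the RefSeq transcription start, and for Csf3r only 2 stretches of the window are printed, leaving out the bases between them and those next to the start. The searched windows were the 250 bases before the start of 27025 genes, on both strands, for GAGGAA (the core bound by the myeloid factor PU.1, found in 23.1% of windows), TTGCNNAA (C/EBP, 9.55%), an NF-kappaB motif of GGG and TTCC with any 3 bases between them (4.6%) and TGANTCA (AP-1, 6.87%). No match overlapped a match of another motif.
Csf1, chr3:107760470-107760719, minus strand: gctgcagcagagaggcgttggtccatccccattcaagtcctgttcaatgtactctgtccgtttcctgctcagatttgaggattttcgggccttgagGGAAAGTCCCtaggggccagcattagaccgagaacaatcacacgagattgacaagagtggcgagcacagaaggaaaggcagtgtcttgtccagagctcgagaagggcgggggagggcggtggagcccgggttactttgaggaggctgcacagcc
Csf2ra, chr19:61228419-61228668, minus strand: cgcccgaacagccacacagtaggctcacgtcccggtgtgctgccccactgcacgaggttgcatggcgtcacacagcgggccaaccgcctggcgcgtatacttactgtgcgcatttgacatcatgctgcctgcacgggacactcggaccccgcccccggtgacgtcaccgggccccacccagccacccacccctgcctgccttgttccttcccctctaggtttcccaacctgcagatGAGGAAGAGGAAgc
Csf3r, distal stretch, chr4:126024409-126024549, plus strand: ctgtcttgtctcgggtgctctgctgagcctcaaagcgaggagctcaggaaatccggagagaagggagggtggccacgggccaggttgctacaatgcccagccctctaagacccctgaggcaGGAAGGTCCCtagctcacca
Csf3r, proximal stretch, chr4:126024561-126024590, plus strand: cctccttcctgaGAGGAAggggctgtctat

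The Csf1 window held an NF-kappaB match on the strand opposite to the gene, 154 to 145 bases before the start, and none of the other 3 motifs. The Csf2ra window held the PU.1 core in adjacent copies, 14 to 9 and 8 to 3 bases before the start. The Csf3r window held an NF-kappaB match 129 to 120 bases before the start and a PU.1 core 86 to 81 bases before it. These matches describe letters in a window and are not shown binding sites. The last 11 bases of the Csf2ra sequence lie in an exon of the GENCODE M21 annotation, and 109 bases of the Csf3r window are exonic there too, which is why only a stretch of 30 of them is printed.

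Among the ligands, Csf1 was higher in TAD, Il34 did not pass the test, and Csf3 was near the limit of detection in control libraries. Csf1 (ENSMUSG00000014599, chr3:107741048-107760469, GRCm38 coordinates of GENCODE M21 here and below) encodes the main growth factor of the macrophage lineage. It stood at 12.2, 5.35 and 14.3 FPKM in TAD 1 to 3, and at 3.04, 3.86, 4.28, 4.05 and 3.69 FPKM in control 1 to 5. TAD 2 was the lowest of the TAD libraries and still above every control, so the groups did not overlap. The means were 10.6 ± 4.67 FPKM in TAD (SD, n = 3) and 3.78 ± 0.471 FPKM in control (SD, n = 5). The log2 fold change, TAD over control here and throughout, was 1.45 ± 0.27 (SE), a 2.73-fold difference, with an adjusted p of 0.00597 in edgeR's quasi-likelihood test. The adjusted p comes from the Benjamini-Hochberg method over all tested genes, and a gene is called when it is below 0.05. Without the heart-rich libraries TAD 1 and control 1 the log2 fold change was 1.28 with an adjusted p of 0.0539 in edgeR, so the call was lost. The order of Csf1 within TAD was that of the fibroblast marker sum, which was 883.2, 162.5 and 1268 FPKM in TAD 1 to 3. Summed smooth muscle markers (387.2, 165.0 and 1147 FPKM) and resident macrophage markers (349.6, 87.6 and 362.1 FPKM) had the same order. The part of these cells in the result was not tested.

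Il34 (ENSMUSG00000031750, chr8:110741829-110805924), the second ligand of Csf1r, known best from skin and brain, stood at 0.711, 1.43 and 0.265 FPKM in TAD 1 to 3. Its control libraries had 1.40, 1.74, 0.906, 0.989 and 0.816 FPKM. The groups overlapped, with TAD 2 inside the control range and TAD 1 and TAD 3 below it. The log2 fold change was −0.57 ± 0.52 (SE) with an adjusted p of 0.444 in edgeR's test, which rested on 20 to 108 counts in TAD and 56 to 115 counts in control libraries. The value turned on TAD 2, since without that library it was −1.30 with an adjusted p of 0.0918. The highest Il34 levels were in TAD 2 and in control 1 and control 2. The neuron and Schwann cell marker sums were 375.0 FPKM in TAD 2, 26.6 FPKM in control 1 and 14.7 FPKM in control 2, with 19.3 FPKM in TAD 1 and 1.76 to 3.91 FPKM in the other libraries. Their part in the result was not tested. Genes on the opposite strand cover 4.95% of the exon bases of Il34, so its counts are uncertain, by an amount that was not measured.

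Csf3 (ENSMUSG00000038067, chr11:98701263-98703629), the cytokine that drives neutrophil production and release, had 131, 8 and 23 counts in TAD 1 to 3. The control libraries had 0, 0, 0, 5 and 2 counts. In FPKM the levels were 7.67, 0.374 and 1.08 in TAD, and 0 in control 1, control 2 and control 3, 0.27 in control 4 and 0.103 in control 5. Every TAD library exceeded every control, and TAD 1 alone held 80.9% of the TAD counts. Relative to library totals the summed counts, 162 in TAD and 7 in control, gave a ratio of 37.0, with an exact 95% interval of 17.5 to 93.4 that covers counting error only. Exact two-sided permutation of the group labels of the CPM values, in all 56 ways, gave p = 0.0179, the smallest this design allows. Without TAD 1 the TAD libraries held 31 counts, the ratio was 9.95 (exact 95% interval 4.30 to 26.8, counting error only), and the exact p was 0.0476, again the smallest allowed. That reading was added after the data were seen. With no filter on low counts, edgeR gave a log2 fold change of 5.22 ± 1.3 (SE) and an adjusted p of 0.0196. A limma fit on log2(FPKM + 1), a scale that understates changes at low levels, gave 1.45 with an adjusted p of 0.0623, so Csf3 was not called there.

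**Figure D1:**
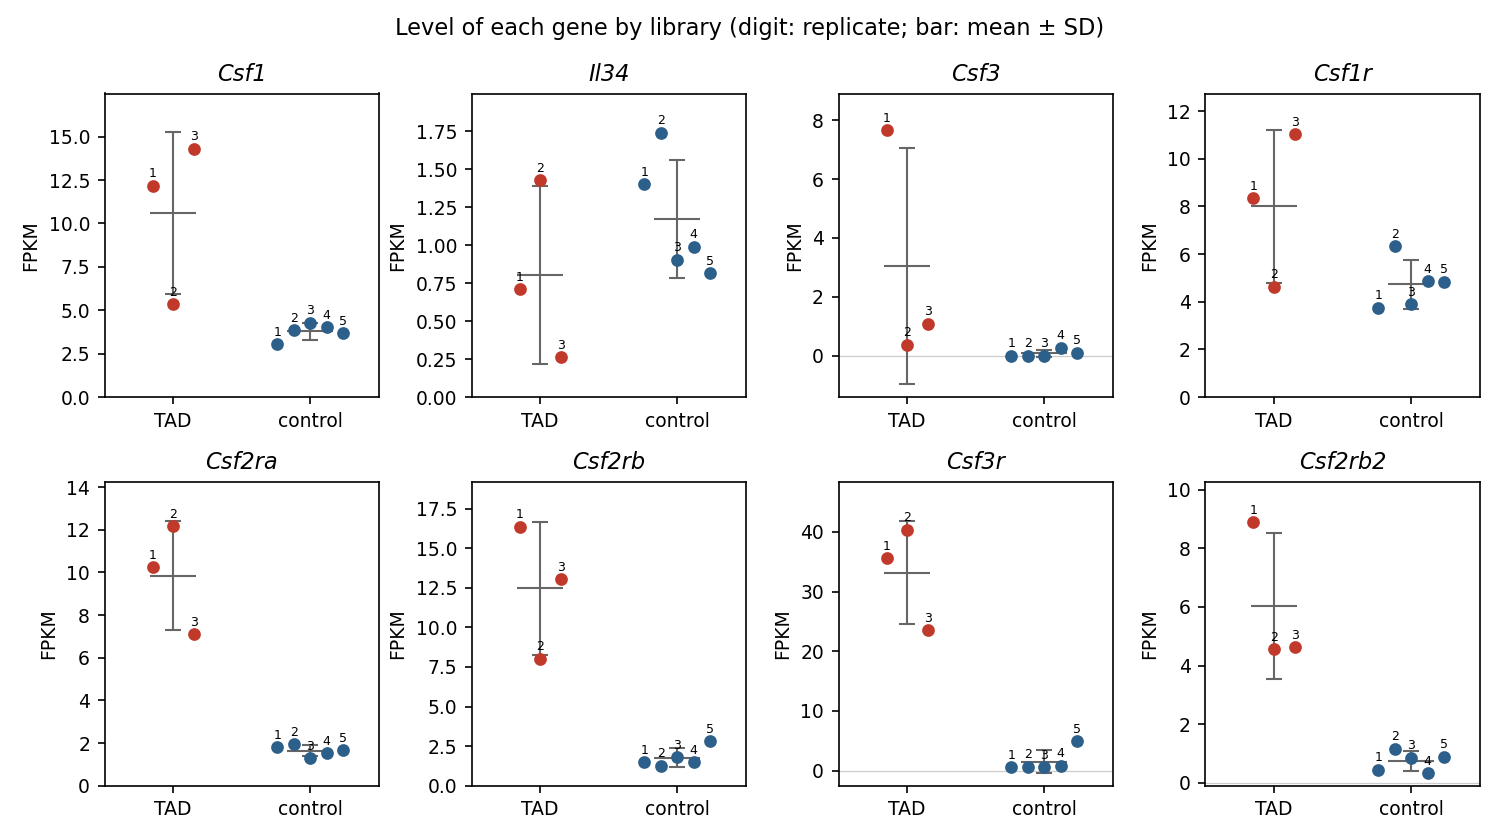
FPKM of the 7 measured genes and the paralog Csf2rb2 in each library on linear axes, with TAD left of control, points numbered by replicate and bars for the mean ± SD. Csf1, Csf3, Csf2ra, Csf2rb and Csf3r show TAD points above every control point, while Il34 and Csf1r overlap, and control 5 stands above the other controls for Csf3r at 4.97 FPKM.

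Of the receptor genes, Csf2ra, Csf2rb and Csf3r rose in TAD, and Csf1r did not pass the test. Together with Csf1 this made 4 of 6 tested genes of the set called higher and 0 lower, where 15.2% of all tested genes were called higher, 11.8% lower and 27% in either direction. Csf2ra, Csf2rb and Csf3r were called at 4-fold or more, as were 4.08% of the tested genes. Of the 7 genes, 5 had every TAD library above every control library in FPKM and 0 had every TAD library below. The 5 include Csf3, which the count filter left out. In CPM, these patterns were found in 16.9% and 15% of the 13701 tested genes. DESeq2, which kept Csf3, called 5 of the 7, against 34.3% of its genes. The median log2 fold change of the 6 tested genes was 2.00, against 0.04 over all tested genes. Fewer cells of a type and less RNA per cell cannot be told apart in bulk tissue, and the same holds for more of either.

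Csf1r (ENSMUSG00000024621, chr18:61100598-61132149), the receptor of Csf1 and Il34, had 8.34, 4.64 and 11.02 FPKM in TAD 1 to 3, against 3.75, 6.34, 3.90, 4.86 and 4.84 FPKM in control 1 to 5. TAD 1 and TAD 3 lay above every control, and TAD 2 lay inside the control range. The log2 fold change was 0.72 ± 0.26 (SE) with an adjusted p of 0.0752 in edgeR's test. Without TAD 2 it was 1.00 with an adjusted p of 0.0104, and without TAD 2, control 1 and control 2 it was 1.04 with an adjusted p of 0.0175, so the missing call rests on TAD 2. Of 12 tested resident macrophage markers, 2 were called higher and none lower, where 15.2% and 11.8% of all tested genes were. These markers summed to 349.6, 87.6 and 362.1 FPKM in TAD 1 to 3 and to 115.0 to 200.0 FPKM in control libraries. They were thus low in the same library as Csf1r. Their part in the result was not tested. Exons of Csf1r share 15.1% of their bases with Hmgxb3 on the opposite strand, and the sources used here do not give the strandedness. The counts of Csf1r are therefore uncertain, by an amount that was not measured.

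Csf2ra (ENSMUSG00000059326, chr19:61223957-61228429), whose promoter carries the paired PU.1 cores, binds GM-CSF. It reached 10.3, 12.2 and 7.11 FPKM in TAD 1 to 3, against 1.81, 1.95, 1.28, 1.53 and 1.67 FPKM in control 1 to 5. The lowest TAD library was well above the highest control, and the spread within each group was narrow. Csf2ra rose by 2.55 ± 0.20 on the log2 scale (SE), 5.84-fold, with an adjusted p of 0.000258 in edgeR's test, and 19 alternative settings gave log2 fold changes of 2.01 to 2.74.

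Csf2rb (ENSMUSG00000071713, chr15:78325752-78353847) encodes the common β chain, which also serves the IL-3 and IL-5 receptors. Its levels were 16.4, 8.02 and 13.03 FPKM in TAD 1 to 3, against 1.501, 1.27, 1.80, 1.48 and 2.83 FPKM in control 1 to 5. Control 5 was the highest control and remained below TAD 2, the lowest TAD library. The log2 fold change was 2.77 ± 0.32 (SE), 6.80-fold, with an adjusted p of 0.000807 in edgeR's test. The neighbouring paralog Csf2rb2 (ENSMUSG00000071714, chr15:78282507-78305721), a β chain specific to IL-3 in the mouse, rose by 2.98 ± 0.42 (SE) with an adjusted p of 0.0018. Csf2rb2 had 8.90, 4.55 and 4.62 FPKM in TAD and 0.334 to 1.17 FPKM in control libraries. Since 6.46% of the 100-base words of the Csf2rb exons also occur in Csf2rb2, reads of the pair can be split or lost, and both levels are uncertain.

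Csf3r (ENSMUSG00000028859, chr4:126024550-126044440), the G-CSF receptor, had the widest difference of the 6 tested genes. It stood at 35.6, 40.4 and 23.5 FPKM in TAD 1 to 3, against 0.620, 0.642, 0.531, 0.858 and 4.97 FPKM in control 1 to 5. All TAD libraries exceeded all controls, and control 5 stood several times above the other controls. Csf3r rose by 4.39 ± 0.81 on the log2 scale (SE), 20.9-fold, with an adjusted p of 0.00545 in edgeR's test. Without control 5 the log2 fold change was 5.63 with an adjusted p of 0.000302, so that library set the size of the difference but not the call.

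Markers of some of the cells known to carry these receptors were higher in TAD, and markers of others were not. Over all tested genes, 15.2% were called higher and 11.8% lower. All 12 recruited monocyte markers were called higher, with sums of 368.2, 419.9 and 221.1 FPKM in TAD 1 to 3 and of 5.83 to 13.1 FPKM in control libraries. Of 12 tested neutrophil markers, 9 were called higher, with sums of 1085, 808.8 and 226.8 FPKM in TAD and of 6.36 to 78.6 FPKM in control libraries. No defining neutrophil or monocyte marker was listed at 0 throughout a group. Among the tested neutrophil markers not called, Ltf (−0.79) and Camp (−1.76) had negative log2 fold changes and Ngp a positive one (2.82). Ly6g did not pass the count filter, with 4.47, 1.76 and 0.104 FPKM in TAD 1 to 3. It had 0 FPKM in control 1 to 4 and 0.228 FPKM in control 5. These genes were named after their values were seen. All 5 pan-leukocyte markers were called higher, with sums of 95.6 to 164.7 FPKM in TAD and of 11.3 to 19.6 FPKM in control libraries, and Ptprc, the leukocyte surface phosphatase CD45, rose by 1.53 ± 0.23 (SE) with an adjusted p of 0.00225 in edgeR's test. Platelet and red cell markers, 8 of 8 called higher, summed to 21650 to 56450 FPKM in TAD and to 1141 to 4961 FPKM in control libraries. Among 8 tested dendritic cell markers 2 were called higher and 1 lower, with overlapping sums of 10.4 to 27.7 FPKM in TAD and 18.1 to 23.5 FPKM in control libraries. None of 5 tested mast cell markers was called, with sums of 3.24 to 10.6 FPKM in TAD and 10.2 to 22.9 FPKM in control libraries. The part of each of these in the receptor results was not tested.

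**Figure D2:**
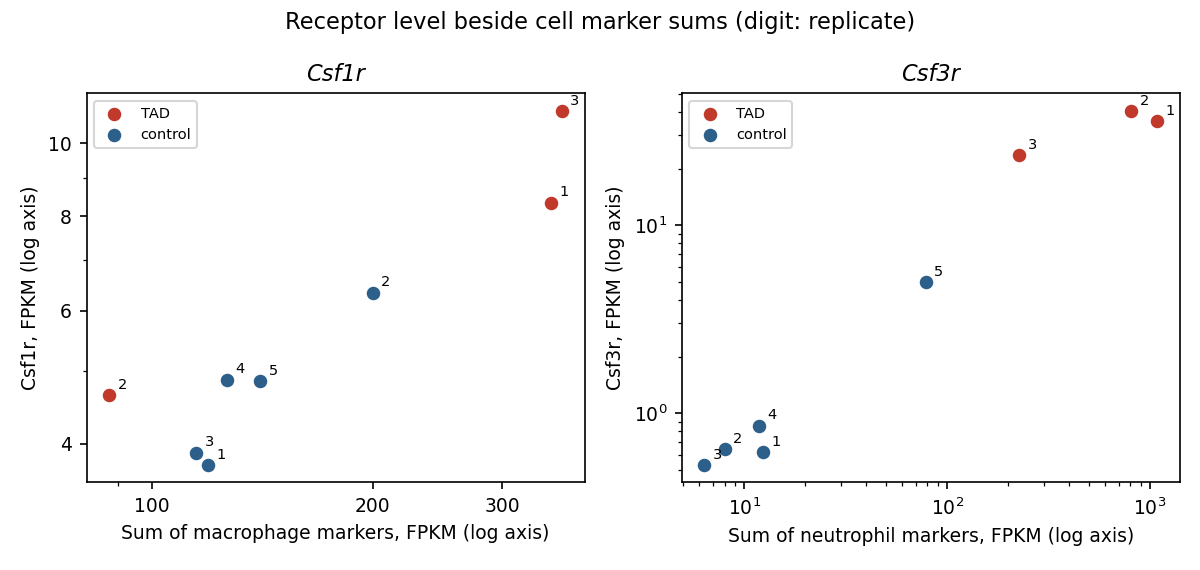
Csf1r against the summed resident macrophage markers, and Csf3r against the summed neutrophil markers, in FPKM on log axes, with points for the 8 libraries numbered by replicate. TAD 2 lies furthest left for macrophage markers at 87.6 FPKM, and control 5 lies between the TAD libraries and the other controls for neutrophil markers at 78.6 FPKM.

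**Figure D3:**
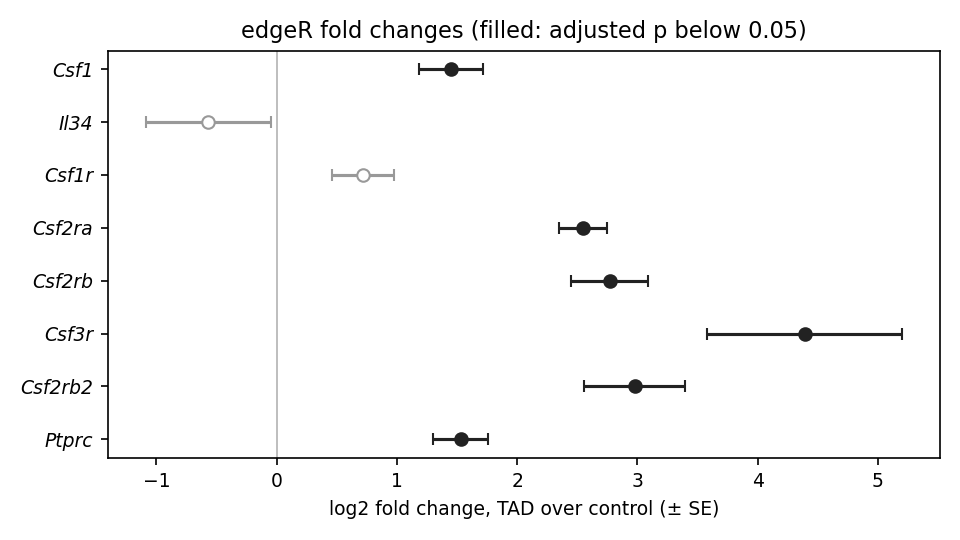
Log2 fold change, TAD over control, of the 6 tested genes, Csf2rb2 and Ptprc, with bars for the standard error from edgeR and filled points for called genes. Csf3r lies furthest right at 4.39, and Csf1r at 0.72 and Il34 at −0.57 have open points.

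Ratios of levels within a library do not depend on how libraries are scaled, and 6 were tested by exact two-sided permutation of the group labels in all 56 ways, with Benjamini-Hochberg adjustment over the 6. Csf3r and Csf2ra stood higher relative to Csf1r in TAD than in control. Csf1r itself was not lower, with a log2 fold change of 0.72 that was not called. The ratios use the same values as the gene tests and are not independent of those calls. The log2 ratio of Csf3r to Csf1r averaged 2.10 ± 1.01 in TAD and −2.25 ± 1.32 in control (SD, n = 3 and 5), a difference of 4.35, with an exact p of 0.0179 and an adjusted p of 0.0357. The log2 ratio of Csf2ra to Csf1r averaged 0.35 ± 1.01 in TAD and −1.51 ± 0.26 in control (SD), a difference of 1.87 with the same exact and adjusted p. In both ratios every TAD library exceeded every control.

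The log2 ratio of Csf1 to its receptor Csf1r averaged 0.38 ± 0.17 in TAD and −0.31 ± 0.31 in control (SD), a difference of 0.68, with an exact p of 0.0179 and an adjusted p of 0.0357. So the ligand lay above its receptor in TAD libraries, and on average below it in controls. For these 3 ratios 0.0179 is the smallest p the design allows, and leaving out any library takes the adjusted p above 0.05, with the sizes given under the processing alternatives. The log2 ratio of Csf1 to Il34 averaged 3.92 ± 1.93 in TAD and 1.74 ± 0.56 in control (SD), a difference of 2.18 with an exact p of 0.0714 and an adjusted p of 0.0857. TAD 2 lay among the controls for that ratio, at 1.91, and the difference was 3.18 without TAD 2 and 1.26 without TAD 3.

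The log2 ratio of Csf1r to Ptprc averaged 1.60 ± 0.75 in TAD and 2.52 ± 0.39 in control (SD), a difference of −0.92 with an exact p of 0.0357 and an adjusted p of 0.0536, and the difference was −0.53 without TAD 2. The chains of the GM-CSF receptor had a log2 ratio of Csf2rb to Csf2ra of 0.32 ± 0.80 in TAD and 0.06 ± 0.56 in control (SD), a difference of 0.25 with an exact p of 0.643. That p does not show the ratio to be equal in both groups.

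**Figure D4:**
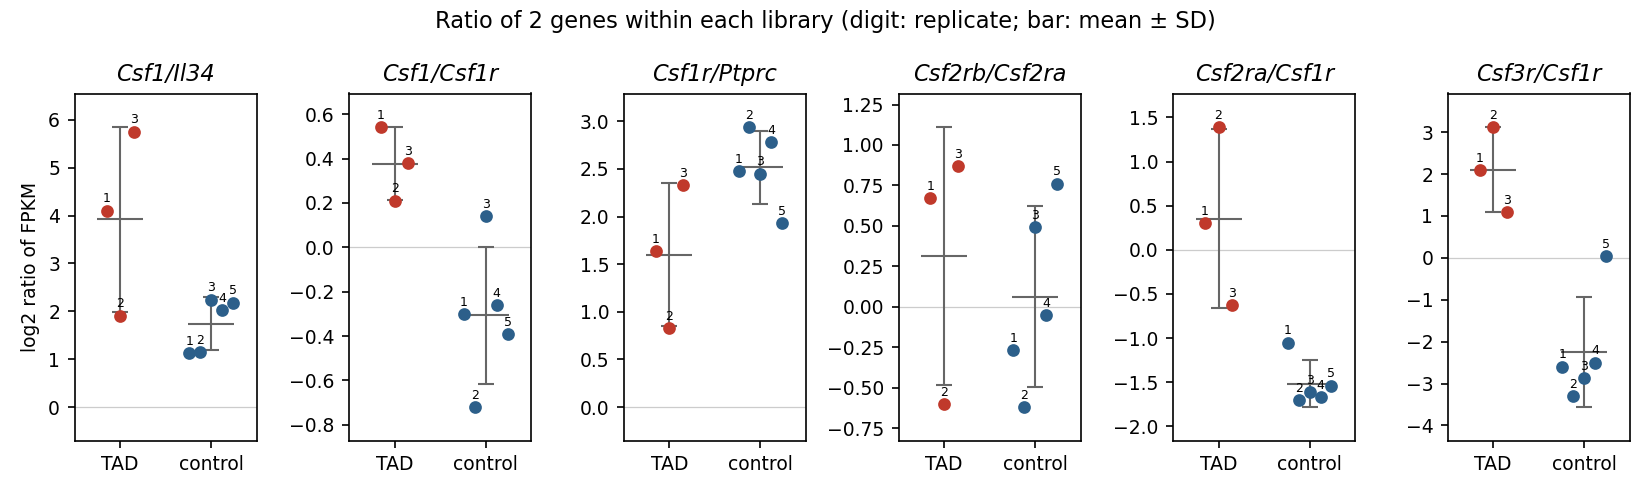
Within-library log2 ratios of FPKM for 6 gene pairs, with TAD left of control, points numbered by replicate and bars for the mean ± SD. The Csf3r to Csf1r ratio averages 2.10 in TAD and −2.25 in control, and the Csf2rb to Csf2ra ratio overlaps throughout.

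The order of the levels differed between the groups. In TAD the order of mean FPKM was Csf3r (33.2 ± 8.68), Csf2rb (12.5 ± 4.20), Csf1 (10.6 ± 4.67), Csf2ra (9.85 ± 2.55), Csf1r (8.00 ± 3.20), Csf3 (3.04 ± 4.02) and Il34 (0.801 ± 0.586; SD, n = 3). Of the neighbours in that order, Csf3r and Csf2rb did not overlap, and the others did. In control the order was Csf1r (4.74 ± 1.03), Csf1 (3.78 ± 0.471), Csf2rb (1.78 ± 0.62), Csf2ra (1.65 ± 0.259), Csf3r (1.52 ± 1.93), Il34 (1.17 ± 0.389) and Csf3 (0.0745 ± 0.118; SD, n = 5). There, Csf1 and Csf2rb did not overlap, nor did Il34 and Csf3. Csf3r thus stood above the other 6 genes in TAD, and below 4 of them in control. The control rank rests on control 5, since Csf3r lay below Il34 in 4 of 5 control libraries, and without control 5 their control means were 0.663 FPKM for Csf3r and 1.26 FPKM for Il34.

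The genes whose levels followed each member most closely were taken by Pearson correlation of log2 CPM over the 8 libraries, among 13150 genes. The points share the 2 groups, so a gene with a steady difference between them can score highly. Csf1 was followed by Cdca4 (0.995), Tnfaip6 (0.995) and P4hb (0.994), and Csf1r by Map2k3 (0.982), Slc27a3 (0.981) and Bud23 (0.974). Csf2ra was followed by Basp1 (0.995), Trappc14 (0.994) and Fermt3 (0.993). Csf2rb was followed by Sbno2 (0.992), Il4ra (0.987) and Lrrc25 (0.986), and Csf3r by Grk2 (0.994), Ptprc (0.992) and Was (0.989). Il34 was followed by Myh14 (0.975), Rpap1 (0.972) and Matn4 (0.969). Among the members themselves r was 0.953 for Csf2rb and Csf3r, 0.88 for Csf1 and Csf1r, and −0.804 for Csf1 and Il34. With Spearman's correlation in place of Pearson's, the 3 top genes shared 1 gene with those named for Csf1, Csf1r and Csf2rb and 0 for Il34, Csf2ra and Csf3r, so the names depend on the measure. Within TAD, Csf1 and Csf1r were both highest in TAD 3 and lowest in TAD 2, while Csf2ra and Csf3r were highest in TAD 2 and lowest in TAD 3.

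Genes that act next to these receptors were counted in lists. Beside the counts of every list stand 15.2% of all tested genes called higher and 11.8% called lower. The median log2 fold change over all tested genes was 0.04. Of 20 genes of receptor-proximal signalling, 14 were called higher, 1 lower and 5 not called, with a median log2 fold change of 1.22. Fgr, a Src-family kinase of myeloid cells, rose by 3.58 ± 0.47 on the log2 scale (SE), with an adjusted p of 0.00134 in edgeR's test. Tyrobp, the adaptor DAP12 that works with Csf1r, had 26.5 to 54.8 FPKM in TAD and 2.86 to 6.06 FPKM in control libraries, and rose by 3.19 ± 0.32. Ptpn6, the phosphatase SHP-1, rose by 2.22 ± 0.28. The JAK kinases and STAT factors of the list were singled out after their values were seen. Jak2 rose by 0.89 ± 0.15 and Stat3 by 1.39 ± 0.19, while Stat5b was the gene called lower, at −0.40 ± 0.13 with an adjusted p of 0.048 in edgeR that was above 0.05 without any single library. Jak1 (0.32), Tyk2 (−0.44) and Stat5a (−0.10) of the same list did not pass the test, with adjusted p of 0.0785, 0.0909 and 0.686 in edgeR. Tyk2 was called without TAD 3 (−0.65, adjusted p 0.0156 in edgeR).

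Of 12 tested feedback and target genes of STAT5 and STAT3, 5 were called higher, 0 lower and 7 not called. The median log2 fold change was 0.74. Those not called are named after their values were seen. Cish (−0.41), Pim1 (−0.20), Ccnd1 (−0.26) and Id1 (−0.09) had negative log2 fold changes. Socs1 (0.93), Socs2 (0.54) and Pim2 (0.43) had positive ones. Osm, the cytokine oncostatin M, had 7.73 to 22.4 FPKM in TAD and 0.0247 to 0.359 FPKM in control libraries, and rose by 6.47 ± 0.68 on the log2 scale (SE), or by 5.77 without TAD 1 and 7.25 without control 5. Socs3, a feedback inhibitor of several cytokine receptors, that of G-CSF among them, had 24.9 to 114.2 FPKM in TAD. It had 2.69 to 6.63 FPKM in control libraries, and rose by 3.99 ± 0.47, or by 3.39 without TAD 1. Myc rose by 2.62 ± 0.31, and the survival gene Mcl1 by 1.19 ± 0.17. The adjusted p of Osm and Socs3 were 0.000595 and 0.000864 in edgeR's test.

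Of 14 tested myeloid transcription factors, 5 were called higher, 3 lower and 6 not called. Spi1, which encodes PU.1, had 13.4 to 27.7 FPKM in TAD and 1.82 to 2.94 FPKM in control libraries, and rose by 2.90 ± 0.27 (SE) with an adjusted p of 0.000381 in edgeR. Runx1, a factor of blood formation, rose by 3.08 ± 0.40, and Cebpd by 2.10 ± 0.33. The genes called lower were Cebpa at −1.83 ± 0.21, Pparg at −1.41 ± 0.13 and Mef2c at −1.64 ± 0.44, with Pparg and Mef2c named after their values were seen. Mef2c was not called without TAD 1 (adjusted p 0.0694 in edgeR) or without TAD 2 (0.0691). Without control 2, its highest control, its log2 fold change was −1.25 and the call was kept (adjusted p 0.0192 in edgeR). Cebpa and Pparg are also the main factors of fat cells and Mef2c of muscle, and 5 of 8 adipocyte markers were called lower in the same libraries. Of the muscle markers, 1 of 8 for smooth muscle and 0 of 7 tested for cardiomyocytes were called lower, where 11.8% of all tested genes were. The smooth muscle markers all had negative log2 fold changes, from −2.03 to −0.85. Those of the cardiomyocyte markers ran from −0.21 to 0.52. Of 8 skeletal muscle markers only Ckm was tested, and it was not called (−2.99). It had 156.7 FPKM in control 2 and at most 18.8 FPKM in any other library. The part of these markers in these results was not tested.

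Of the 10 cytokines known to induce colony-stimulating factors, 6 were measured and 5 passed the count filter. Of these 5, 4 were called higher and 0 lower. A gene near 0 in controls, such as Il6, passes that filter only through its TAD libraries. This count is therefore no independent support, and the same can hold for low genes of the other lists. Il1b, an inflammatory cytokine of myeloid cells, had 21.3 to 47.7 FPKM in TAD and 0.267 to 3.76 FPKM in control libraries, and rose by 4.92 ± 0.85 on the log2 scale (SE), or by 6.23 without control 5. Il6 had 1.67 to 34.5 FPKM in TAD and at most 0.0448 FPKM in control libraries, with a fitted log2 fold change of 9.86 ± 1.15. That value depends on how near-zero levels are treated, since limma gave 6.51 on log2(FPKM + 0.1) and 3.61 on log2(FPKM + 1). With 1 library left out, edgeR gave 9.03 without TAD 3 to 10.48 without control 1. The alarmin Il33 rose by 3.76 ± 0.62, or by 3.11 without TAD 3. Tnf, at 0.480 to 0.642 FPKM in TAD and 0.0232 to 0.267 FPKM in control libraries, rose by 2.22 ± 0.64, a call with an adjusted p of 0.0339 in edgeR that was lost without control 2, control 4, control 5 or any TAD library, at adjusted p of 0.0655 to 0.0746.

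Of 11 tested related hematopoietic cytokines and receptors, 3 were called higher and 3 lower, with a median log2 fold change of −0.22. Those called higher included Csf2rb2 and the receptor kinase Flt3, which rose by 2.62 ± 0.64 on the log2 scale (SE) and had 0.122 to 0.565 FPKM in TAD and 0.0199 to 0.105 FPKM in control libraries. Epor, the erythropoietin receptor, fell by 1.86 on the log2 scale, and the ligands Kitl and Flt3l, named after their values were seen, fell by 0.54 and 0.90. The call of Flt3 was lost without TAD 1 (2.14, adjusted p 0.0799 in edgeR). That of Epor was lost without control 1, control 4, control 5, TAD 1 or TAD 3 (adjusted p 0.0513 to 0.0819 in edgeR), and that of Flt3l without any library other than control 2 or TAD 3 (0.0725 to 0.1257). Kitl was not called without TAD 1 and control 1 (−0.61, adjusted p 0.0516 in edgeR). Of 7 genes of receptor shedding and regulation, 3 were called higher and 0 lower, with a median of 0.05. The protease Mmp9, also a neutrophil marker, rose by 3.09 ± 0.58, Rhbdf2, a partner of the sheddase ADAM17, by 1.06 ± 0.20, and the sheddase Adam10 by 0.43 ± 0.13. The call of Adam10 was lost without any library other than TAD 2, at adjusted p of 0.0501 to 0.1421 in edgeR, and that of Mmp9 without TAD 2, control 1 and control 2 (2.68, adjusted p 0.0512). Without control 5 Mmp9 rose by 3.79.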

How the data were processed

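RNA-seq of 8 aortic libraries was used, 3 TAD and 5 control, grouped by their titles. The table deposited by the authors holds, per the file headers, raw read counts and FPKM values per gene. Tools given in the submitters' processing notes are HTSeq, HISAT2, fastp 0.23.1 and bcl2fastq 2.19, along with human builds, while the gene identifiers are those of mouse. The build and strandedness the authors used are not given in the sources used here. Counts were filtered with filterByExpr (minimum count 10), TMM-scaled and compared by the quasi-likelihood test of edgeR 4.0.16 (R 4.3.3) on all 8 libraries without a covariate. DESeq2 1.42.0 and limma 3.58.1 on log2(FPKM + 1) or log2(FPKM + 0.1), with a mean of at least 0.5 FPKM, were alternatives, as were other filters, left-out libraries, a 2-fold threshold and a replicate block. The biological coefficient of variation was 41.6%. Reads carry no molecular identifiers, so intervals cover counting error only. Members and lists were chosen with earlier results of these data known. All members, Csf2rb2 and Ptprc were named, with up to 4 called genes of largest absolute log2 fold change per list and the 3 most correlated genes per member; any other gene is marked in the text, and some genes under this rule are not reported here. The edgeR, limma and DESeq2 fits were tried on simulated counts with known fold changes. The ratio, Csf3, outlier and promoter steps were not. A planned ratio of Csf3 to Csf2 was not computed, because Csf2 was not analysed here.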

Additional observations from a re-analysis of the deposited data

Results flagged for a closer look

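Dixon's test was applied to the 5 control libraries of 45 measures, and 9 had a library whose gap to its nearest neighbour, as a share of the group's range, passed the critical value of 0.71. Chance alone passes about 1 in 20 groups. Control 5 was the highest control for Csf3r (0.927), Ptprc (0.748), Fgr (0.744), Osm (0.721), Il1b (0.852) and Mmp9 (0.895), and for the log2 ratio of Csf3r to Csf1r (0.76). These values come from the same library and are not independent of each other. Control 1 was the highest control for the log2 ratio of Csf2ra to Csf1r (0.743). Control 2 was the highest control for Mef2c (0.733).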

How the results depend on the processing

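Over 19 alternative settings, the log2 fold changes of Csf2ra, Csf2rb and Csf3r kept their direction and their call. Among the other fold changes of named members and list genes, that of Stat5a (−0.10) reversed, to 0.06 without TAD 2 and 0.11 without TAD 2, control 1 and control 2 (−0.22 to 0.06 with 1 library left out), and none else did in the settings run for it, fewer for Csf3 and some low genes, and the correlated genes were not rerun. Fold changes of the uncalled feedback and target genes of STAT5 and STAT3 were not compared across settings. Of 13701 tested genes 3705 were called, against 632 with a 2-fold threshold, 1255 with a replicate block and 1963 without the heart-rich TAD 1 and control 1. Leaving out 1 library gave 2549 to 3728. Of the members 4 were called, against 3 under those 3 settings, 5 without a count filter, with DESeq2 or with limma on log2(FPKM + 0.1), and 6 without TAD 2, alone or with control 1 and control 2. Csf1 was not called with the 2-fold threshold (adjusted p 0.242 in edgeR) or the block (0.0593 in edgeR). Under the block Il33, Rhbdf2, Jak2, Kitl, Mef2c, Flt3, Flt3l, Epor, Tnf, Adam10 and Stat5b lost their calls too (adjusted p 0.069 to 0.2175 in edgeR). To look for a pairing, the group mean of each gene was subtracted from its log2 CPM. Across genes, these deviations correlated at 0.427, 0.097 and 0.544 between same-numbered libraries. In these deviations TAD 1 and TAD 3 correlated best with the control of their own number, and TAD 2 with control 1 (0.362). The labels do not say that the numbers pair libraries, and the main fit took no pairing. These values do not settle whether a pairing exists.

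The ratio differences ran from 1.35 to 2.36 (Csf2ra to Csf1r), 3.84 to 4.92 (Csf3r to Csf1r) and 0.58 to 0.79 (Csf1 to Csf1r) when 1 library was left out, with adjusted exact p of 0.0571 to 0.1143, where the smallest exact p is 0.0286 or 0.0476. That of Csf1 to Il34 ran from 1.26 to 3.18 and that of Csf1r to Ptprc from −1.28 to −0.53. Without TAD 1 and control 1 they were 2.01, 4.27 and 0.60, and without TAD 2, control 1 and control 2 they were 1.44, 3.37 and 0.63, where the exact test cannot pass. The difference of Csf2rb to Csf2ra ran from −0.03 (without TAD 3, reversed) to 0.71 (without TAD 2) when 1 library was left out, and it reversed to −0.01 without TAD 1 and control 1. Counts of called list genes moved by over 1.5 times for related cytokines and receptors (6, against 1 with the 2-fold threshold, 2 with the block, 3 without TAD 1, 2 without TAD 1 and control 1, and 3 with each limma pseudocount). Signalling had 15, against 9 with the 2-fold threshold, which also gave 3 of 5 STAT genes, 5 of 8 transcription factors and 1 of 3 shedding genes. The block left 2 of 4 inducers and 1 shedding gene, as did leaving out TAD 2, control 1 and control 2 for shedding. The causes were not tested. Csf3 and Il34 rest on few reads, at most 131 and 115 counts in a library.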
